A study of Mus musculus with 24 samples.

Results

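The immediate early genes described here are Dusp1, Zfp36l1, Zfp36, Jun, Junb, Fos, Egr1, Ier2, Ier3 and Btg2, read from every probe set whose single platform gene symbol is one of these names. They make up 10 genes and 13 probe sets of the 18193 genes and 45101 probe sets on the array, and all 13 probe sets passed the filter on low signal. Dusp1 and Zfp36l1 were chosen from their measured difference between livers of mice fed 0.1% phloridzin and livers of control mice, and the other 8 genes were grouped with them when results of these data were already known. The comparison of 0.1% phloridzin with control is therefore given as a description, without a test. Livers came from male BALB/c mice labelled as 6-week-old that ate a purified AIN-93G diet with 0% phloridzin (control), 0.1% phloridzin, 0.5% phloridzin or 1% phloridzin for 14 days. Phloridzin is a plant glucoside that blocks sodium-coupled glucose uptake. The labels name 6 mice per diet, kept 3 to a cage under a 12 hour light cycle whose dark phase fell in the daytime, and 24 arrays. No transgene or second treatment was used, and all groups shared the same base diet.

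Immediate early genes are switched on within minutes of a stimulus without new protein synthesis, mostly by kinase cascades that act on factors already bound to their promoters, and their mRNAs decay quickly. In liver they are known to respond to partial hepatectomy, growth factors, stress hormones, fasting signals and to the handling of the tissue itself. Jun, Junb, Fos and Egr1 encode transcription factors. Dusp1 encodes a phosphatase that switches off MAP kinases, Zfp36 and Zfp36l1 encode proteins that bind AU-rich elements and speed the decay of mRNA, and Btg2 encodes an antiproliferative protein that recruits the deadenylase complex, so these genes act as brakes on the same response. Ier2 and Ier3 are further early response genes, of which Ier3 is linked to cell survival.

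The upstream sequences of 4 genes are shown because these genes stood below every control sample at 1 or more doses. Each is the 250 bases before the annotated start in RefSeq (GRCm38.p6), read 5′ to 3′ on the strand of the gene, and capitals mark matches to searched motifs. All 4 genes lie on the minus strand, Dusp1 at chr17:26508473-26508722, Zfp36l1 at chr12:80113014-80113263, Zfp36 at chr7:28379229-28379478 and Junb at chr8:84978749-84978998.
Dusp1: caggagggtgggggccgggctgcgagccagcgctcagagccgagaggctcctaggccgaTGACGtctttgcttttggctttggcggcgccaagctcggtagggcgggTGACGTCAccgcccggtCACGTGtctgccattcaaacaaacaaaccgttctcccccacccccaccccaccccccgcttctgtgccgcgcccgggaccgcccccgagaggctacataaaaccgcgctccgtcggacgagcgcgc
Zfp36l1: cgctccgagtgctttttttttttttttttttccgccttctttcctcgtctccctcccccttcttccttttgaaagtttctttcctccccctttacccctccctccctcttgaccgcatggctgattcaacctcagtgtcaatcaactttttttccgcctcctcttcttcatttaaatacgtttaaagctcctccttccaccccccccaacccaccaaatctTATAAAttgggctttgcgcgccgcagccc
Zfp36: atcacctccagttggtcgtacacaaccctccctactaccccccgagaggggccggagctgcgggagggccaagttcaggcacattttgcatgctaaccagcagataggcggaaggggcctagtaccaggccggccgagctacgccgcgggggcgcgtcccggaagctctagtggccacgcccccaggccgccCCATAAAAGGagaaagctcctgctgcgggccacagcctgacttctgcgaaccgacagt
Junb: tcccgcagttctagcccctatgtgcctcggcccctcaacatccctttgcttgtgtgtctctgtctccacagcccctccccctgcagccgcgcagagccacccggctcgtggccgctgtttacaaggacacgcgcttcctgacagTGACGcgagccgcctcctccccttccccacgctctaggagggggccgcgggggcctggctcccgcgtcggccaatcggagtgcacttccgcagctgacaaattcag
Of the 10 genes, 8 had an entry in the promoter table. Both strands of these windows were searched for the cyclic AMP response element TGACGTCA, its half-site TGACG, the AP-1 site TGACTCA, the E-box CACGTG, the TATA box TATAAA and the CArG box that serum response factor binds. The half-site is part of the full element, so each full match also counts as a half-site match. The full cyclic AMP response element was in the windows of Dusp1 and Btg2 and in 1.55% of 32851 windows of the same length, and in Dusp1 it lay from -143 to -136 relative to the start. The half-site was in 4 of 8 (Dusp1, Junb, Fos and Btg2) and in 17.8% of all windows. The E-box of Dusp1 occurred in 6.02% of all windows, the TATA box of Zfp36l1 and Fos in 12.4%, and the CArG box of Zfp36, from -58 to -49, in 1.47%. The AP-1 letters were in 0 of the 8 windows and in 4.46% of all windows.

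The 24 arrays did not hold 24 separate RNA samples. Of the arrays, 18 fell into 8 sets of near-identical signal, and after 2 further joins the data were read as 12 RNA samples, by thresholds chosen after seeing the data. Arrays of 1 RNA were averaged, which left 4 control samples (replicates 1 and 3, replicates 2 and 4, replicate 5, replicate 6), 3 at 0.1% phloridzin (replicates 2, 4 and 5), 2 at 0.5% (replicates 1, 2, 3 and 6, and replicates 4 and 5) and 2 at 1.0% (replicates 2, 3, 5 and 6, and replicate 4). The twelfth RNA carried the labels of different diets (replicates 1, 3 and 6 at 0.1% and replicate 1 at 1.0%) and entered no comparison. It could not be settled that each RNA came from a different mouse, and the p-values below cover only how much these RNA samples vary. Markers of hepatocytes were high in every sample: 10 of 12 were measured, and the lowest value among them was 10.64 for Hnf4a on the log2 scale, on which 3.00 is the floor set for dim signals. The number of separate RNA samples limits the precision of all values.

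Dusp1 mRNA was lowest at 0.1% phloridzin, intermediate at 0.5% and overlapping with control at 1.0%. Its log2 signal was 10.27, 10.78, 10.27 and 10.27 in the 4 control samples, 9.17, 9.05 and 8.90 at 0.1%, 9.22 and 9.86 at 0.5%, and 10.44 and 10.21 at 1.0%. The samples of the 3 doses did not overlap with each other, those at 0.1% and 0.5% lay below every control sample, and of those at 1.0% one (10.44) lay inside the control range and the other (10.21) just below it. At 0.1% phloridzin Dusp1 averaged 9.04 ± 0.13 (SD, n = 3), against 10.40 ± 0.26 in control livers (SD, n = 4), a 2.56-fold lower level by the values that chose it. In whole liver, less mRNA per cell and fewer cells that hold it cannot be told apart, which applies to every gene below.

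At 0.5% phloridzin Dusp1 averaged 9.54 ± 0.45 (SD, n = 2), a log2 difference from control of -0.86 ± 0.18 (SE; 95% interval -1.25 to -0.46), or 1.81-fold lower. The limma adjusted p over 13118 genes was 0.412, so the difference did not pass the threshold of 0.05. The control samples are the same as in the comparison that chose Dusp1. At 1.0% it averaged 10.32 ± 0.17 (SD, n = 2) and differed from control by -0.07 ± 0.18 (SE; 95% interval -0.47 to 0.32; limma adjusted p = 0.967). This value depends on the processing: it was -0.37 with arrays centred on their median (limma adjusted p = 0.300), -0.53 with no scaling (limma adjusted p = 0.306) and -0.60 with the RNA of different diets entered under each (limma adjusted p = 0.943). The comparison of 1.0% with 0.5% uses none of the samples that chose Dusp1 in its means, and there Dusp1 was higher at 1.0% by 0.78 ± 0.21 (SE; 95% interval 0.33 to 1.24), with a limma adjusted p of 0.989.

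The Dusp1 differences at 0.5% leaned on the RNA of replicates 1, 2, 3 and 6. Without it Dusp1 was at -0.54 from control and the difference between 1.0% and 0.5% was 0.46, and without replicates 4 and 5 the values were -1.17 and 1.10. The difference from control at 0.5% passed the threshold (limma adjusted p = 0.0310) where RNA matched only by its most variable genes was counted as separate. The difference between 1.0% and 0.5% was 0.26 where the RNA labelled with different diets was entered under each of them.

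**Figure D1:**
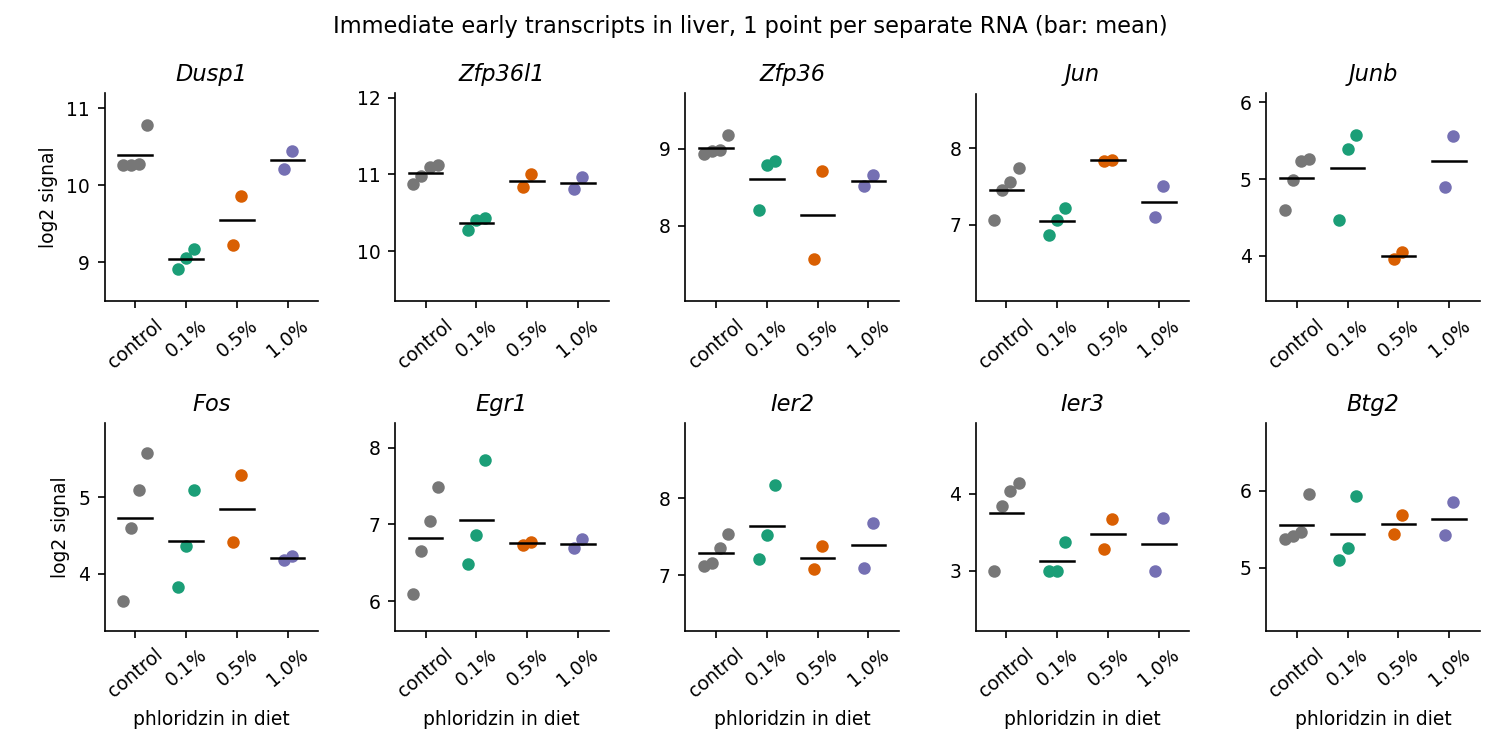
Log2 signal of each gene (y axis, one span of 2.7 log2 units in every panel) on the control diet and at 0.1, 0.5 and 1.0% phloridzin (x axis), with 1 point per separate RNA sample and a bar at the group mean (n = 4, 3, 2 and 2). Dusp1 and Zfp36l1 are low in all 3 samples at 0.1%, Junb is low in both samples at 0.5%, and Fos and Egr1 vary widely among control samples.

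The plot of all genes by diet shows that Zfp36l1 shared the low level of Dusp1 at 0.1% but not at 0.5%. On its brighter probe set (1450644_at) the log2 signal was 10.88, 11.10, 11.12 and 10.98 in control samples, 10.43, 10.41 and 10.28 at 0.1%, 11.00 and 10.84 at 0.5%, and 10.81 and 10.97 at 1.0%. All 3 samples at 0.1% were below every other sample, whereas those at 0.5% and 1.0% overlapped with control. The level at 0.1% was 10.37 ± 0.08 (SD, n = 3), against 11.02 ± 0.11 in control livers (SD, n = 4), which is 1.57-fold lower by the values that chose the gene. Zfp36l1 stood at -0.10 ± 0.10 from control at 0.5% (log2 difference ± SE; 95% interval -0.33 to 0.12; limma adjusted p = 0.984). At 1.0% it stood at -0.13 ± 0.10 (95% interval -0.36 to 0.09; limma adjusted p = 0.835). Between 1.0% and 0.5% the log2 difference was -0.03 ± 0.12 (SE; limma adjusted p = 1).

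The second probe set of Zfp36l1 (1422528_a_at) also had its 3 samples at 0.1% (7.39, 6.89 and 7.37) below every control sample (7.84 to 8.07). At 0.5% it read 7.93 and 7.45, so that replicates 4 and 5 lay below the control range on this probe set while only slightly below it on the brighter one. Its log2 difference from control was -0.75 ± 0.16 (SE) at 0.1%, -0.28 ± 0.18 at 0.5% and 0.07 ± 0.18 at 1.0%. The sets correlated with r = 0.837 over the 11 samples, and both are read from the same arrays.

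Zfp36, the best studied member of the same family of mRNA decay proteins, was lower than in every control sample at all 3 doses, and its low values varied more. Of all genes, 3.74%, 8.69% and 12.4% lay below every control sample at 0.1, 0.5 and 1.0%, each dose counted separately against the same control samples. Its log2 signal was 8.93, 9.18, 8.98 and 8.97 in control samples, 8.79, 8.21 and 8.84 at 0.1%, 7.56 and 8.72 at 0.5%, and 8.51 and 8.66 at 1.0%. The lowest single value, 7.56, belonged to the RNA of replicates 1, 2, 3 and 6 at 0.5%. The log2 difference from control was -0.40 ± 0.22 (SE) at 0.1%, -0.88 ± 0.25 at 0.5% (95% interval -1.42 to -0.34; limma adjusted p = 0.617) and -0.43 ± 0.25 at 1.0% (95% interval -0.97 to 0.11; limma adjusted p = 0.772). The difference at 0.5% rested on 1 RNA: it was -0.30 without replicates 1, 2, 3 and 6 and -1.46 without replicates 4 and 5, where limma's adjusted p was 0.0353 with 1 RNA left at 0.5%, assumed to vary like the other groups. The Zfp36 difference between 1.0% and 0.5%, 0.44 ± 0.29 (SE; limma adjusted p = 1), turned to -0.13 without replicates 1, 2, 3 and 6 at 0.5%.

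**Figure D2:**
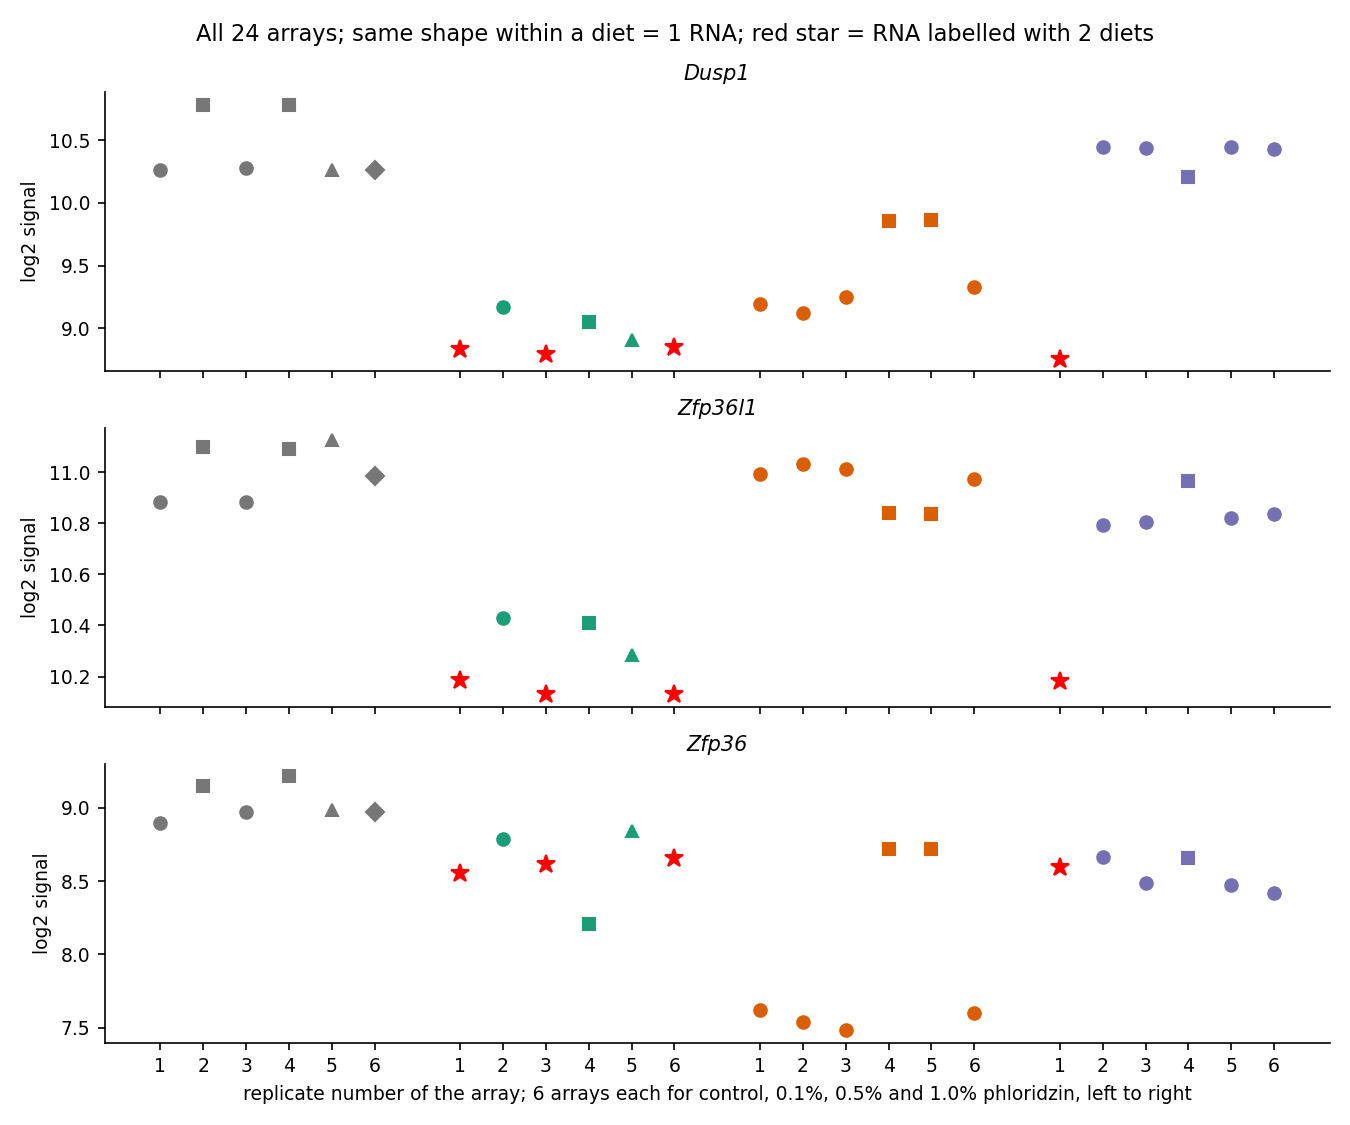
Log2 signal (y axis) of Dusp1, Zfp36l1 (1450644_at) and Zfp36 on each of the 24 arrays, ordered by diet and replicate number (x axis), with arrays of 1 RNA sharing a shape within a diet and red stars for the RNA labelled with different diets. Arrays of 1 RNA lie close together, and the 4 starred arrays lie lowest for Dusp1 and Zfp36l1, including the one labelled 1.0%.

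The plot of all arrays places the RNA with the labels of different diets beside the 0.1% samples. In that RNA Dusp1 read 8.81 and Zfp36l1 10.16, both below the lowest sample at 0.1% (8.90 and 10.28). Zfp36 read 8.60 in it, inside the range at 0.1% (8.21 to 8.84) and below the lowest control sample (8.93). Jun read 6.74, below both ranges. These values belong to no comparison because the labels do not settle the diet.

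Among the transcription factors, Junb was low at 0.5% phloridzin alone and Jun was high there on its brighter probe set, both on probe sets with a wide spread between repeat arrays. Junb read 4.60, 5.24, 4.98 and 5.26 in control samples, 5.39, 4.47 and 5.57 at 0.1%, 4.05 and 3.96 at 0.5%, and 5.56 and 4.90 at 1.0%. Both samples at 0.5% were below every other sample, and the remaining groups overlapped. The log2 difference of Junb at 0.5% from control was -1.02 ± 0.32 (SE; 95% interval -1.71 to -0.33; limma adjusted p = 0.684). Junb was higher at 1.0% than at 0.5% by 1.23 ± 0.37 (log2 difference ± SE; limma adjusted p = 0.989). Junb was a dim probe set, and with a pseudocount of 16 in place of the floor these differences were -0.57 and 0.72. It had an SD of 0.359 between near-identical repeat arrays.

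Jun, the main partner of Fos in the AP-1 factor, read 7.06, 7.56, 7.74 and 7.45 in control samples, 7.07, 6.87 and 7.21 at 0.1%, 7.84 and 7.85 at 0.5%, and 7.10 and 7.51 at 1.0% on 1448694_at. Both samples at 0.5% exceeded every other sample, by little over the highest control. The log2 difference was -0.40 ± 0.17 (SE) at 0.1%, 0.39 ± 0.19 at 0.5% (limma adjusted p = 0.955) and -0.15 ± 0.19 at 1.0% (limma adjusted p = 0.909). The log2 difference of Jun between 1.0% and 0.5% was -0.54 ± 0.22 (SE; limma adjusted p = 1). On the second probe set (1417409_at) the samples at 0.5%, 7.40 and 7.69, overlapped with control (6.48 to 7.59), and the differences were -0.24 ± 0.25, 0.39 ± 0.29 and -0.13 ± 0.29 at the 3 doses in rising order. The sets correlated with r = 0.827 (n = 11). Between near-identical repeat arrays the SD was 0.0481 on 1417409_at, against 0.211 on 1448694_at.

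Fos and Egr1, the classical markers of a recent stimulus, did not separate any diet from control. Fos ranged from 3.65 to 5.58 among control samples, 3.83 to 5.09 at 0.1%, 4.42 to 5.28 at 0.5% and 4.18 to 4.23 at 1.0%. Egr1 ranged from 6.09 to 7.49 among control samples, 6.48 to 7.84 at 0.1%, 6.74 to 6.77 at 0.5% and 6.69 to 6.81 at 1.0%. All samples lay inside the control range for Fos, and for Egr1 all but replicate 5 at 0.1% did. The log2 difference of Fos was 0.12 ± 0.47 (SE) at 0.5% and -0.52 ± 0.47 at 1.0%, and that of Egr1 was -0.07 ± 0.36 at each of these doses (limma adjusted p of 0.851 or more for both genes). For Fos at 1.0% the 95% interval, -1.52 to 0.48, leaves room for sizeable changes in either direction.

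Ier2, Ier3 and Btg2 also overlapped with control at every dose. Ier2 ranged from 7.11 to 7.53 in control samples, 7.21 to 8.18 at 0.1%, 7.08 to 7.37 at 0.5% and 7.09 to 7.68 at 1.0%, and its value of 8.18 in replicate 5 at 0.1% was the highest. Ier3 was at the floor on 9 of 24 arrays, so its differences (-0.63 ± 0.32, -0.28 ± 0.36 and -0.41 ± 0.36, log2 ± SE, in rising order of dose) are bounded from below by the floor. With a floor of 16 they were -0.04, -0.04 and 0.00. Btg2 on 1448272_at stood at 0.01 ± 0.26 from control at 0.5% and 0.08 ± 0.26 at 1.0% (log2 difference ± SE; limma adjusted p = 0.997 and 0.975). Its second probe set (1416250_at) followed it less closely, with r = 0.672 (n = 11) and -0.41 ± 0.40 and 0.36 ± 0.40 at these doses.

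**Figure D3:**
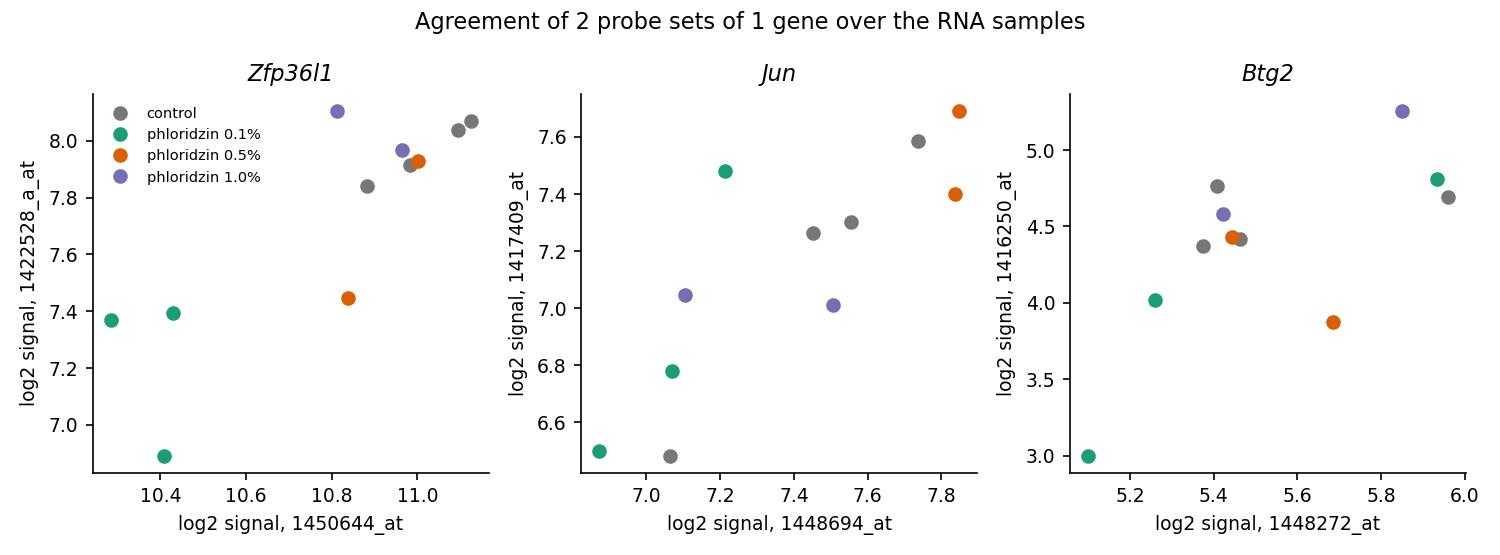
Log2 signal of the second probe set (y axis) against that of the brighter one (x axis) for Zfp36l1, Jun and Btg2, with 1 point per RNA sample (n = 11) and colours for the control diet and the 3 doses. Both Zfp36l1 probe sets place all samples at 0.1% at the lower left, while Jun and Btg2 show no such group.

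Counted over the 10 genes, 7 were lower than control and 3 higher at each dose, with a median log2 difference of -0.35 at 0.1%, -0.08 at 0.5% and -0.10 at 1.0%, against 0.00 (0.1%), 0.01 (0.5%) and -0.02 (1.0%) over all 13118 genes. The split depends on the scaling: with arrays centred on their median 7, 8 and 9 of 10 were lower at 0.1, 0.5 and 1.0%, and with no scaling 8, 9 and 10 were, as the median of all genes moved to -0.20 and -0.35 at 1.0% under these settings. These 3 comparisons share their control samples. At 0.1% the members below every control sample were 3 (Dusp1, Zfp36l1 and Zfp36; 3.74% of all genes), 0 were above every control sample (4.13% of all genes). Dusp1 and Zfp36l1 were chosen from this contrast, so nothing is read from these counts, and no call is given for the members beside the 0.0229% of all genes that limma called there.

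At 0.5% phloridzin 3 of 10 lay below every control sample (Dusp1, Zfp36 and Junb), against 8.69% of all genes, and 1 lay above (Jun, on its brighter probe set alone), against 9.16%. None (0 of 10) was called by limma at an adjusted p under 0.05, against 0.00762% of all genes. At an unadjusted p under 0.05 the count was 3 lower (Dusp1, Zfp36 and Junb; 2.71% of all genes) and 0 higher (2.52% of all genes).

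At 1.0% phloridzin 1 of 10 (Zfp36) lay below every control sample, against 12.4% of all genes, and 0 lay above, against 8.23%. Called genes were 0 of 10, against 0.0152% of all genes by limma, and 0 of 10 had an unadjusted p under 0.05 in either direction (4.02% of all genes lower, 2.48% higher). Between 1.0% and 0.5% limma called 0 of 10 and 0% of all genes. At an unadjusted p under 0.05, 2 of 10 were higher at 1.0% (Dusp1 and Junb; 1.61% of all genes) and 1 was lower (Jun; 2.6% of all genes). The 0.5% samples are the same in this comparison and in that of 0.5% with control.

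**Figure D4:**
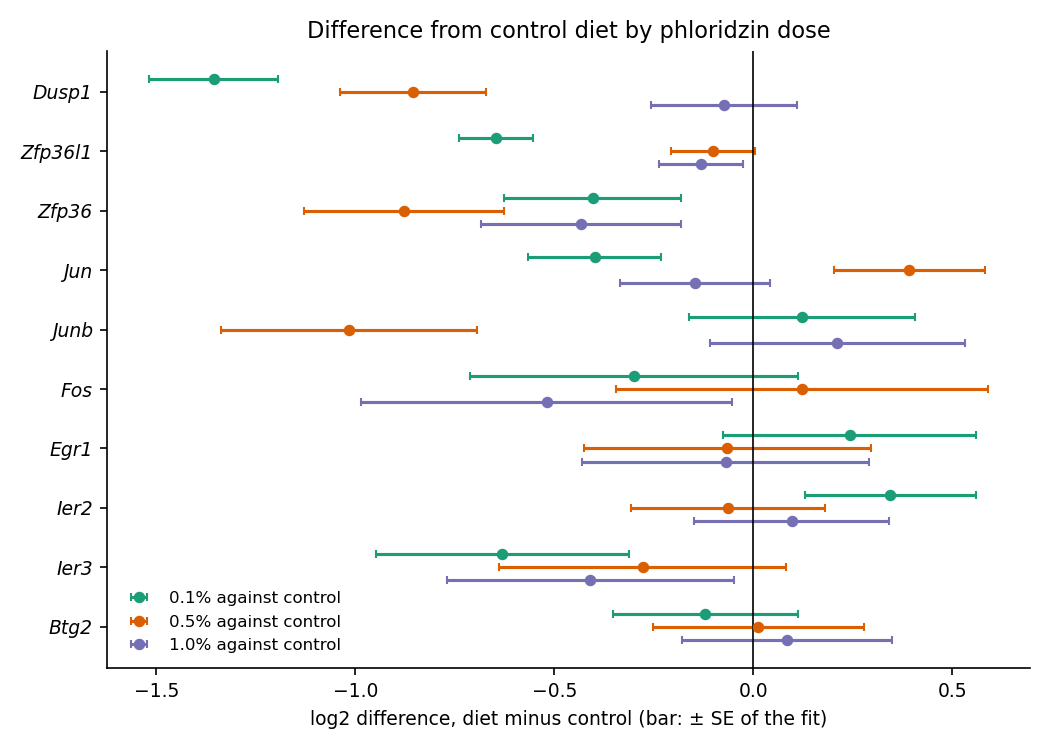
Log2 difference from control (x axis, diet minus control) of each gene (y axis) at 0.1, 0.5 and 1.0% phloridzin, with bars of ± 1 SE of the fit. Dusp1 lies at -1.36, -0.86 and -0.07 in rising order of dose, Zfp36l1 at -0.65, -0.10 and -0.13, and Junb at 0.12, -1.02 and 0.21.

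The plot of differences by dose shows no order of dose shared by the genes. Dusp1 moved towards control as the dose rose, Zfp36 and Junb were lowest at 0.5%, and Zfp36l1 was lowest at 0.1%. Jun was lowest at 0.1% and highest at 0.5%.

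Repeat arrays here are the 18 arrays in 8 sets of near-identical signal over bright genes, without the further joins. A smaller spread between them than between RNA samples follows from that choice for bright genes and is given as a description. Pairs brought together by the further joins had SDs of 0.108 to 0.137 over bright genes, against 0.0436 to 0.0577 in near-identical pairs. The pooled SD between repeat arrays was 0.0473 for Dusp1, 0.0186 for Zfp36l1 and 0.0547 for Zfp36, against 0.258, 0.103 and 0.370 between RNA samples of a diet. Over all genes the medians were 0.145 and 0.264. Fos had a between-sample SD of 0.677, above that of 97.7% of all genes, and Egr1 one of 0.540, above 92.4%. Zfp36l1 lay at the other end, above 4.65% of genes. For Junb (0.359 and 0.415), Ier3 (0.406 and 0.417) and the brighter Jun probe set (0.211 and 0.233) the spread between repeat arrays came close to that between samples.

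**Figure D5:**
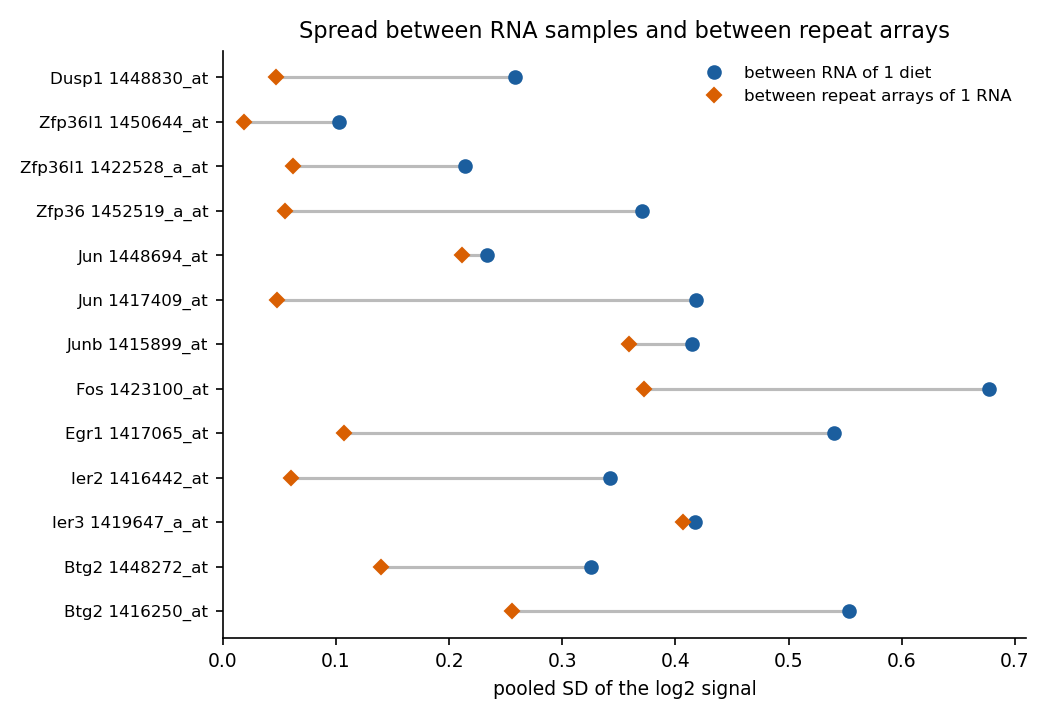
Pooled SD of the log2 signal (x axis) between near-identical repeat arrays of 1 RNA (diamonds) and between RNA samples of 1 diet (circles) for the 13 probe sets (y axis). The gap is wide for Dusp1, Zfp36 and Egr1 and nearly closed for Junb, Ier3 and Jun 1448694_at.

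Of 45 pairs, 36 had a positive Pearson correlation over the 11 RNA samples, with a median r of 0.263, and 7 exceeded 0.6. The highest was that of Dusp1 with Zfp36l1 (r = 0.792), which were chosen for a shared fall at 0.1%. Egr1 correlated with Ier2 at r = 0.708 and with Fos at r = 0.703, and the lowest value was that of Zfp36l1 with Ier2 (r = -0.571). The genes of a pair are read from the same arrays with the same normalization, so these values are descriptions.

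Among all genes tested, those whose log2 values were most like those of Dusp1 over the 11 samples were Klhl6 (r = 0.887), Sugct (r = 0.884), Tmem151b (r = 0.860), Abca6 (r = 0.847) and Ccr3 (r = 0.846). Sugct, which encodes a CoA transferase of glutarate metabolism, was at 6.54 ± 0.17 at 0.1% (SD, n = 3), against 7.16 ± 0.09 in control livers (SD, n = 4). The genes most like Zfp36l1 were Ubqln1 (r = 0.921), Rbl1 (r = 0.914), Cxadr (r = 0.912), Anp32e (r = 0.908) and Pcdh18 (r = 0.904). Cxadr, a cell adhesion protein and virus receptor, was at 8.25 ± 0.19 at 0.1% (SD, n = 3), against 8.87 ± 0.13 in control livers (SD, n = 4). Pcdh18, a protocadherin, was at the floor in all 3 samples at 0.1%. These genes were picked for likeness to Dusp1 and Zfp36l1, which were chosen for their difference at 0.1%. Low levels at 0.1% therefore follow from the choice and are given as descriptions. Ccr3, Pcdh18, Tmem151b and Rbl1 were dim, with mean log2 levels of 3.6, 4.0, 4.2 and 4.6.

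Other genes of the early response were split about evenly between higher and lower at both higher doses, and at 0.1% 20 were higher and 15 lower (median log2 difference 0.05, against 0.00 over all genes). Of 40 listed, 35 were measured, and 0 were called at 0.5%, at 1.0% or between these doses. The comparison at 0.1% is given without a test. At 0.5%, 17 of 35 were higher than control and 18 lower, with a median log2 difference of -0.00, against 0.01 over all genes. There 1 was higher (2.52% of all genes) and 2 were lower (2.71% of all genes) at an unadjusted p under 0.05. At 1.0%, 18 were higher and 17 lower, of which 1 higher (2.48% of all genes) and 2 lower (4.02% of all genes) had an unadjusted p under 0.05. Klf4, a zinc finger transcription factor with a dim signal (mean log2 4.02), had the lowest unadjusted p of the list between 1.0% and 0.5%. Its difference there was -0.88 ± 0.31 (log2 ± SE, limma adjusted p = 1). Rhob, a small GTPase, stood at -0.64 ± 0.24 from control at 0.5% (limma adjusted p = 0.812) and at 0.53 ± 0.21 at 0.1%.

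Of the remaining phosphatases and feedback inhibitors of MAP kinases, 14 of 17 were measured, and 8 were higher and 6 lower than control at 0.1%, 9 higher and 5 lower at 0.5%, and 7 higher and 7 lower at 1.0%. The median log2 difference at 0.5% was 0.09, against 0.01 over all genes, with 0 called by limma. There 1 was higher (2.52% of all genes) and 0 lower (2.71% of all genes) at an unadjusted p under 0.05. Dusp14, a small phosphatase, was at 0.86 ± 0.32 (log2 ± SE; limma adjusted p = 0.779). Of the kinases and factors upstream, 19 of 26 were measured and 0 were called, with medians of 0.05 at 0.5% and -0.00 at 1.0%. At an unadjusted p under 0.05 there were 0 at 0.5% and 1 (lower, against 4.02% of all genes) at 1.0%. Of 8 measured AP-1 targets and NF-kB feedback genes (of 11), 0 were called, and 6 were higher and 2 lower than control at 0.5%, 0 of them at an unadjusted p under 0.05.

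Among 15 measured genes of AU-rich mRNA decay and the antiproliferative BTG/TOB proteins (of 17), 0 were called, with 6 higher and 9 lower at each of 0.5% and 1.0%. At an unadjusted p under 0.05, 1 was lower at 0.5% (2.71% of all genes) and 1 higher at 1.0% (2.48% of all genes). Cnot8, a catalytic subunit of the CCR4-NOT deadenylase, was at -0.60 ± 0.13 from control at 0.5% (log2 ± SE; limma adjusted p = 0.412) and at -0.08 ± 0.13 at 1.0%. Tob1 was at 0.50 ± 0.20 at 1.0% (limma adjusted p = 0.758).

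Several other measures differed from control in some samples, and their part in the results was not tested. Beside the 0.1% values, 10 of 12 Kupffer cell and macrophage markers were lower than control, and their mean log2 level relative to the control mean was -0.16, -0.44 and -0.00 in replicates 2, 4 and 5, against -0.04 to 0.10 in control samples. Of the sinusoidal endothelial markers 8 of 11 were lower, with -0.06, -0.42 and 0.08, against -0.04 to 0.04 in control samples. No Kupffer marker was at the floor in any of these samples. At 1.0%, 10 of 12 Kupffer cell and 8 of 11 endothelial markers were also lower, with median log2 differences of -0.11 and -0.10. The medians at 0.1% were -0.19 and -0.07. The 3′ minus 5′ signal of the Gapdh control probe sets, a measure of RNA integrity, was -0.27, -0.05 and -0.26 in replicates 2, 4 and 5 at 0.1%, against -0.37 to -0.28 in control samples, and that of the actin probe sets was 1.51, 2.32 and 1.48, against 1.31 to 1.54. Replicate 4 stood furthest from control in both, and replicates 2 and 5 also lay above the control range for Gapdh. Without replicate 4 the log2 difference at 0.1% was -1.36 for Dusp1 and -0.66 for Zfp36l1. In replicate 5, 1 RNA of the comparison that chose both genes, they were low and the Kupffer level was within the control range. No cause of the low values was tested.

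Beside the 0.5% values, Tsc22d3, a gene that glucocorticoids induce, was at -0.89 ± 0.15 from control (log2 ± SE; limma adjusted p = 0.202). Lcn2, which encodes lipocalin 2, a secreted iron-scavenging protein of the acute phase, moved the other way, at 2.25 ± 0.65 (limma adjusted p = 0.620). Tat, the tyrosine aminotransferase that glucocorticoids also induce, was at -0.49 ± 0.13 (limma adjusted p = 0.597). At 0.1% and 1.0% Tsc22d3 was at -0.51 ± 0.13 and -0.34 ± 0.15. Tat was at -0.31 ± 0.11 and 0.00 ± 0.13 at these doses, and Lcn2 at 0.02 ± 0.57 and 0.15 ± 0.65. Over all 13 listed glucocorticoid-induced genes 7 were higher and 6 lower at 0.5%, with 0 called by limma. At an unadjusted p under 0.05, 2 were higher (2.52% of all genes) and 3 lower (2.71% of all genes). Their mean log2 level relative to control at 0.5% was 0.44 in replicates 1, 2, 3 and 6 and -0.29 in replicates 4 and 5. In control samples it ran from -0.05 to 0.05. At 0.5% the circadian list (13 measured) had a mean level of -0.82 in the RNA of replicates 1, 2, 3 and 6. In that of replicates 4 and 5 it was 0.17, against -0.14 to 0.15 in control samples. Zfp36 and Dusp1 were lowest at this dose in the RNA of replicates 1, 2, 3 and 6. At 0.1%, where Dusp1 was lowest of all diets, the circadian level was 0.37, 0.07 and 0.36 in replicates 2, 4 and 5. Of 7 measured neutrophil markers (of 11), 6 were higher at 0.5%. Their mean level at 0.5% was -0.03 in replicates 1, 2, 3 and 6 and 0.88 in replicates 4 and 5. The control samples ran from -0.32 to 0.22. Cholangiocyte markers (3 of 6 measured, all dim and higher at 0.5%) had a mean level of 0.77 in replicates 1, 2, 3 and 6 and 0.70 in replicates 4 and 5, against -0.25 to 0.21 in control samples, and also lay above that range in 2 of 3 samples at 0.1% and 1 of 2 at 1.0%. The Gapdh 3′ minus 5′ signal was -0.18 in both samples at 0.5%, and that of actin was 1.49 in replicates 1, 2, 3 and 6 and 1.78 in replicates 4 and 5.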

How the data were processed

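Liver RNA was labelled from an oligo(dT) primer and hybridised to 1-colour Affymetrix mouse arrays, per the labels' protocols. The authors deposited a linear intensity for each probe set on each array; how probes were summarised, corrected for background and scaled was not stated, so the absolute scale is unknown. No scan dates or detection calls were used, so scan batches were not tested. Array medians ran from 9.49 to 18.0. Probe sets were named from the platform annotation (34945 with 1 gene, 932 with several, 9160 unlisted).

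The deposited intensities were quantile-normalized, floored at 8 and put on the log2 scale. Arrays whose log2 differences had an SD under 0.08 over 1463 bright genes, and sets with a fingerprint ratio under 1.2, were averaged as 1 RNA. The lowest 40% of 45101 probe sets were left out and each gene took its brightest probe set, which gave 13118 genes. limma 3.58.1 (R 4.3.3; lmFit, eBayes with trend, 7 residual degrees of freedom, two-sided) compared diets over 11 RNA samples in 1 fit, with Benjamini-Hochberg adjustment over all genes and calls at an adjusted p under 0.05. The fit was tested on simulated data. Scaling, floor, filter, probe set choice, repeat arrays and single samples were varied. Named genes were all members, up to 4 genes of each list by p between 1.0% and 0.5%, and the 5 most correlated with Dusp1 and with Zfp36l1. Members and lists were chosen with earlier results of these data known.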

Additional observations from a re-analysis of the deposited data

Results flagged for a closer look

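Dusp1 in the control RNA of replicates 2 and 4 read 10.78, far from the 3 other control samples, which all read 10.27. Btg2 (1448272_at) in control replicate 5 read 5.96, far from the other control samples (5.38 to 5.46). Chance alone flags about 1 in 20 groups of this size by the gap used. In the RNA labelled with different diets, which no comparison used, Junb read 5.43, above the highest control sample (5.26), and Ier2 read 7.72, above the highest control sample (7.53). Both lay inside the range of the samples at 0.1% phloridzin.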

How the results depend on the processing

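Of 10 genes, 0 were called at 1.0% against control under all 12 alternatives and all 11 runs that left out an RNA sample. At 0.5% against control the count called was 0, but 1 with near-identical arrays alone averaged (Dusp1, -0.96, limma adjusted p = 0.0310), 3 with all 24 arrays as samples (Dusp1, Zfp36 and Junb) and 3 with the replicate block; leaving out 1 RNA gave 0 to 1. At 1.0% against 0.5% it was 0, but 4 with all 24 arrays and 4 with the replicate block (Dusp1, Zfp36, Jun and Junb); leaving out 1 RNA gave 0 to 0. The settings with all 24 arrays count repeat arrays as samples. The setting with near-identical arrays alone averaged keeps apart arrays that were joined by a threshold chosen after seeing the data. Whether those arrays share 1 RNA was not settled. Genes below every control sample at 1.0% numbered 1, but 3 with arrays centred on their median and 3 with no scaling, settings under which the median of all genes lay at -0.20 and -0.35, against -0.02 as reported; leaving out 1 RNA gave 1 to 4, with 4 without control replicates 1 and 3, 3 without 1.0% replicates 2, 3, 5 and 6, and 2 without 1.0% replicate 4. At 0.1% it was 3, with 2 to 3 under the alternatives (2 with no scaling) and 3 to 5 when 1 RNA was left out (5 without control replicates 1 and 3). At 0.5% it was 3, with 2 to 4 under the alternatives and 3 to 4 when 1 RNA was left out. With no scaling the difference of Zfp36l1 at 0.1% was -0.83, against -0.65 as reported. The difference of Zfp36 between 1.0% and 0.5% reversed to -0.13 without 0.5% replicates 1, 2, 3 and 6, within a range of -0.13 to 1.02; the cause was not tested. With arrays centred on their median and with no scaling, the difference at 1.0% was -0.43 and -0.59 for Zfp36l1 (-0.13 as reported) and -0.71 and -0.87 for Zfp36 (-0.43 as reported), none called by limma. Dusp1 at 0.5% ran from -1.17 to -0.54. Between 1.0% and 0.5%, Dusp1 kept its sign in all runs and was 0.26 with the RNA of different diets entered under each. Over all genes, calls ran from 0 to 448 at 0.5%, 0 to 402 at 1.0% and 0 to 973 between these doses. Replicate numbers did not pair the arrays: over 36 same-number pairs r ran from -0.15 to 0.42, 6 exceeded 0.1, and 4 of 24 arrays matched their own number best. Precision is limited by 2 RNA samples at 0.5% and 2 at 1.0%, and for Ier3 by signal at the floor on 9 of 24 arrays.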
